A study of Mus musculus with 9 samples.

Results

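The collagen genes were taken as every protein-coding gene of the GRCm38.p6 RefSeq table whose symbol has the form Col, a number, a, a number. There were 44 such genes among 21883 protein-coding genes: 11 fibrillar, 6 basement membrane and 27 other collagens. They were followed through 9 chromatin immunoprecipitation sequencing (ChIP-seq) libraries of 3T3-L1 cells, a mouse fibroblast-like line that can be turned into fat cells. The cells carried a negative control siRNA (siControl), an siRNA against malic enzyme ME1 (siME1) or one against malic enzyme ME2 (siME2), and every group was induced to form adipocytes 2 days after transfection and fixed after a further 7 days. Chromatin was precipitated for acetylated H3 (AcH3), for acetylated H2B (AcH2B) and for the deacetylase HDAC3, which gave 1 library for each antibody and siRNA. There were no replicates, so each difference describes 2 libraries and no test across conditions was possible.

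Collagens are the main fibrous proteins of the extracellular matrix, built from chains that wind into a triple helix. Fibrillar collagens form the tough fibrils of connective tissue, type IV collagen forms the sheet-like network of basement membranes, and other collagens coat, link or anchor these structures. Fibroblasts and preadipocytes secrete fibrillar collagens, and fat-cell differentiation is known to shift the matrix towards basement membrane components. Histone acetylation marks active promoters and enhancers, and HDAC3 removes it.

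The promoters below belong to the fibrillar and basement membrane genes whose listed start lay inside an AcH3 siControl region, plus Col1a2, which was added after its values were seen because its start lay in a gap between a pair of such regions. They are RefSeq sequences of GRCm38.p6, each 300 bases, from 250 before the start to 50 after it. Capitals mark matches to a CCAAT box (CCAAT), a GC box (GGGCGG) or a TATA box (TATAAA) on either strand. None of the 3 motifs contains another.
Col4a1, chr8:11312777-11313076, minus strand: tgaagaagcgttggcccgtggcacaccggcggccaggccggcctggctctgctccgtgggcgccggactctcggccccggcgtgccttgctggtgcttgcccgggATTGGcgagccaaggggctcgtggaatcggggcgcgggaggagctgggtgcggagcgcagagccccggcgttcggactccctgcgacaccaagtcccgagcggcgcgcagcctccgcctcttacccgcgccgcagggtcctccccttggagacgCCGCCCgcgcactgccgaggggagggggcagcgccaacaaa
Col4a2, chr8:11312555-11312854, plus strand: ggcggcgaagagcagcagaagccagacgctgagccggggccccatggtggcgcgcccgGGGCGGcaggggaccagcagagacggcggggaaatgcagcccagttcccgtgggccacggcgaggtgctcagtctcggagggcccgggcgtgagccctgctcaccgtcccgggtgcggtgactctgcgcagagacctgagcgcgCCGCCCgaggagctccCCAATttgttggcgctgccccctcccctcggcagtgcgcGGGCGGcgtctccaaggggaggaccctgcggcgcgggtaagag
Col5a1, chr2:27886175-27886474, plus strand: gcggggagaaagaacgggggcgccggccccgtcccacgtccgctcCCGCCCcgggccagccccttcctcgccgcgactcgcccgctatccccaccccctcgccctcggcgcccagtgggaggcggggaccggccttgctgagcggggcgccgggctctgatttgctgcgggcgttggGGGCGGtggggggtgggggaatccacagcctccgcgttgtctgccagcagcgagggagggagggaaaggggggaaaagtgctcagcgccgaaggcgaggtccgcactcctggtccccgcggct
Col3a1, chr1:45311288-45311587, plus strand: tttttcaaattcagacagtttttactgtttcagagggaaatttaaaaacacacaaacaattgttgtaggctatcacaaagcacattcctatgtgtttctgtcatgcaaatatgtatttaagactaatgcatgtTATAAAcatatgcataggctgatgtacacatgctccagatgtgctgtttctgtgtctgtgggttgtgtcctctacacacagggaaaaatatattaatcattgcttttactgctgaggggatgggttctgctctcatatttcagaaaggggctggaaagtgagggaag
Col4a5, chrX:141475169-141475468, plus strand: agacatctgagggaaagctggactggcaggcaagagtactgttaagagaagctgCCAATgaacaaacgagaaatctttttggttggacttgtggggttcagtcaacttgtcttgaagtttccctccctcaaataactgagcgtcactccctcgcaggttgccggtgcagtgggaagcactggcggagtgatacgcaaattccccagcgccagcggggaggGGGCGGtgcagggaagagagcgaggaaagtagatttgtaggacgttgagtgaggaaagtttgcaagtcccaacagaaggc
Col1a2, chr6:4505368-4505667, plus strand: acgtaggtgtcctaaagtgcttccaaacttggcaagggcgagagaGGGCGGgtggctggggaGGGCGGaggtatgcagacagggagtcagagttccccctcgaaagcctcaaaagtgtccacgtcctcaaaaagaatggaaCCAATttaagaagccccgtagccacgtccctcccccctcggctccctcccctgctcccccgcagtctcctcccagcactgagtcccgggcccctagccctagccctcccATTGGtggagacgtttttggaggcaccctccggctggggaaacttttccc

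Col4a1 and Col4a2 encode the chains of the commonest type IV collagen and are transcribed away from each other. Their listed starts were 21 bp apart, and their printed promoters shared 78 bases read from opposite strands. The GC box 9 bp into Col4a1 and the one 7 bp into Col4a2 were the same bases of chromosome 8. These promoters were rich in CpG, with 37 CpG dinucleotides in Col4a1, 33 in Col4a2 and 34 in Col5a1. Col3a1 stood at the other extreme, with 0 CpG and a TATA box 117 bp before its listed start, while Col4a5 had 11 CpG and Col1a2 had 13. A CCAAT box was found in 34.2% of the 38 promoters listed for 35 collagen genes and in 38.2% of 21237 promoters of protein-coding genes. A GC box was found in 60.5% and 46.2%, and a TATA box in 13.2% and 12.6%. Collagen promoters with an AcH3 siControl region within 1 kb of the start had a median of 14.5 CpG, against 22 for all genes with such a region. A match shows only that the letters are present. Col14a1, Col2a1, Col5a2, Col1a1, Col26a1, Col4a3, Col22a1, Col9a3 and Col12a1 had no listed start, so regions there were placed from the annotated gene ends.

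A region is a stretch of enrichment in the authors' deposited peak list, and its fold is the deposited ratio of coverage to local background at its highest-scoring summit. The lists held 21995, 34799 and 28415 AcH3 regions in siControl, siME1 and siME2, 20046, 54649 and 32465 AcH2B regions, and 4614, 5202 and 1597 HDAC3 regions. The total number of reads is not given here in any source used. The lowest local background was 1.76 to 2.22 fragments in the acetylated histone lists and 1.14 to 1.37 in the HDAC3 lists. RNA was not measured, so the extent of knockdown was not checked by these data. All 8 preadipocyte and fibroblast markers held AcH3 and AcH2B regions in every library, while the adipocyte markers Adipoq, Plin1 and Cidec held none in any of the 9 libraries. Of the 7 adipocyte markers, 3, 3 and 4 held AcH3 in siControl, siME1 and siME2, and 1, 3 and 3 held AcH2B. None of the 3 muscle markers held a region of any antibody. Endothelial, cartilage and bone, leukocyte and epithelial markers held AcH3 in siControl at 1 of 4, 3 of 5, 1 of 3 and 1 of 3.

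Most collagen genes marked by AcH3 in siControl were still marked in siME2, where many other genes were not. A region in the gene or within 1 kb of it was listed for AcH3 at 21 of 44 collagen genes under siControl, 28 under siME1 and 30 under siME2. Over all protein-coding genes the share with such a region went the other way, at 52.5%, 48.7% and 31.8%. In siME2 the collagen share was 68.2%, with a Wilson 95% interval of 53.4% to 80%, which covers counting error only. Of the 21 collagen genes marked in siControl, 1 had no AcH3 region in siME1 and 1 had none in siME2, Col11a2 in each case. Over all genes 11.8% of those marked in siControl were lost in siME1 and 43.5% in siME2. The Wilson interval of 1 lost gene among 21, 0.846% to 22.7%, holds the share of siME1 and not that of siME2. This interval treats the genes as independent and takes no account of gene length or of the spread between cultures. With lists of equal length 3 collagen genes were lost in siME1 and 2 in siME2. The share of all genes lost was not computed for those lists, so 11.8% and 43.5% do not apply to them. Of the 23 unmarked in siControl, 8 were gained in siME1 and 10 in siME2, against 5.04% and 4.48% of all unmarked genes. Both comparisons use the same siControl library. Each library pools many cells, so fewer cells with a mark and less of the mark in each cell cannot be told apart.

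AcH2B was already widespread at collagen genes in siControl. It was listed at 26 of 44 in siControl, 59.1% with a Wilson interval of 44.4% to 72.3%, at 31 in siME1 and at 28 in siME2. The shares over all genes were 16.4%, 39.2% and 34.3%. With lists of equal length the collagen genes numbered 26, 24 and 25, so the higher numbers of the knockdowns were not seen there. None of the 26 collagen genes with AcH2B in siControl was lost in siME1, against 2.65% of all genes, and 2 were lost in siME2 (Col8a2 and Col7a1), against 8.75%. Of the 18 without AcH2B in siControl, 5 were gained in siME1 and 4 in siME2, close to the 27.8% and 23.1% of all genes.

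**Figure D1:**
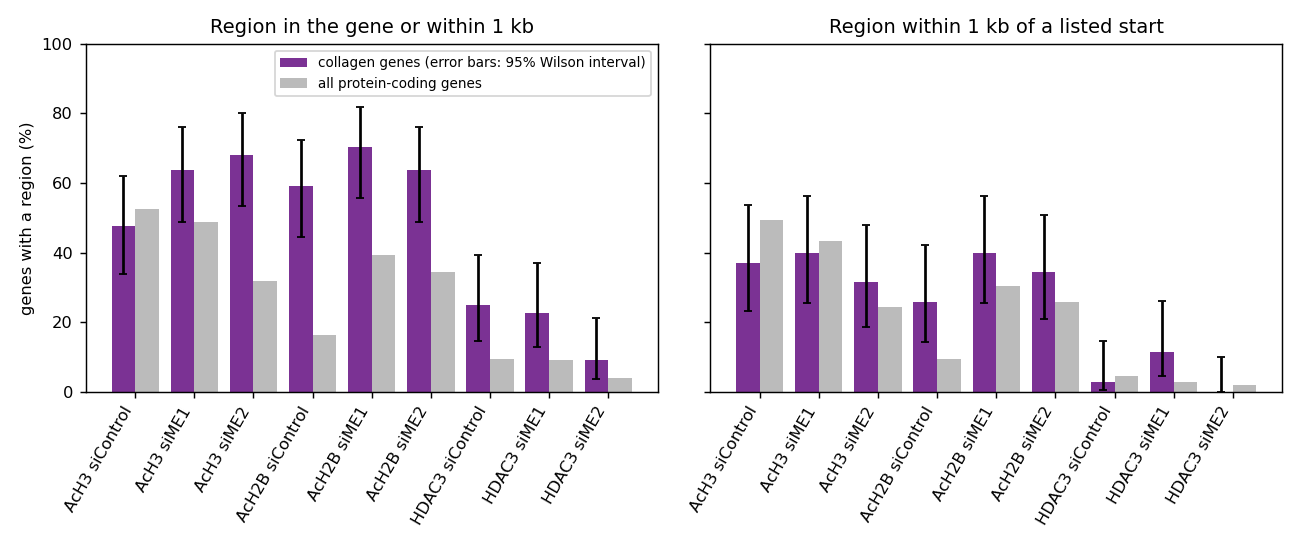
Percentage of genes with a region in each of the 9 libraries, for the 44 collagen genes (purple, error bars are Wilson 95% intervals) and all 21883 protein-coding genes (grey). The left panel counts regions in the gene or within 1 kb, the right panel regions within 1 kb of a listed start (35 collagen genes). For AcH3 the left grey bars go down from siControl to siME2, from 52.5% to 31.8%, and the purple ones do not.

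Collagen genes are long, which gives a region more room to fall in them. Their median length was 114 kb, from 7.11 to 420 kb, against 17.2 kb for all protein-coding genes. Among genes of 100 kb or more, AcH2B in siControl was listed at 15 of 26 collagen genes and at 36% of 2428 genes of that length. Among shorter genes it was listed at 11 of 18 collagen genes and at 13.9% of all. For AcH3 in siME2 the long collagen genes numbered 18 of 26, against 51.3% of long genes, and the shorter ones 12 of 18, against 29.3%. The difference in the number of collagen genes with AcH3 lay in the long ones, with 10 of 26 in siControl and 17 of 26 in siME1, against 61.4% and 62.3% of long genes. Long collagen genes were thus below the share of long genes in siControl and near it in siME1. The shorter ones stood at 11, 11 and 12 in siControl, siME1 and siME2.

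At gene starts, where the window does not grow with gene length, most collagen genes marked in siControl also kept AcH3. A gene with more than 1 listed start offers a window at each. AcH3 regions lay within 1 kb of the start of 13 of 35 collagen genes under siControl, 14 under siME1 and 11 under siME2, against 49.3%, 43.4% and 24.4% of the 17491 genes with a listed start. In siME2, 2 of the 13 starts marked in siControl were lost (Col8a1 and Col27a1), with a Wilson interval of 4.33% to 42.2%, and 51.5% of all such starts were. In siME1 it was 1 of 13 (Col5a3), against 13.3%. Col4a1 and Col4a2 share 1 start region and are counted as 2 of the 13. The retained starts included strong ones: 8 of the 13 had a siControl fold at or above the median of all marked starts, 9.64. None of those 8 was lost in siME2, against 34.7% of all starts of that strength, and 2 of the 5 weaker ones were lost, against 68.3%. Gained AcH3 starts were few, with 2 of 22 in siME1 (Col18a1 and Col4a6), against 1.42%, and 0 of 22 in siME2, against 1.03%.

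AcH2B at collagen starts was listed at 9 of 35 genes under siControl, 14 under siME1 and 12 under siME2, against 9.46%, 30.4% and 25.8% of all starts. None of the 9 was lost in siME1 and 1 was lost in siME2 (Col18a1), against 3.51% and 14.3% of all. Of the 26 without AcH2B at the start in siControl, 5 were gained in siME1 and 4 in siME2, against 23.5% and 19.6%. The 4 genes gained in siME2, which were Col6a3, Col23a1, Col27a1 and Col4a5, were among the 5 of siME1, and the fifth was Col5a3.

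Col1a1 and Col1a2, the chains of type I collagen, the main collagen of most connective tissue, were marked in all 6 acetylated histone libraries. Col1a1 spans chr11:94936224-94953042. The AcH3 region at its lower-coordinate end had a fold of 17.4 under siControl, 9.86 under siME1 and 8.58 under siME2, and was 3109, 808 and 748 bp wide. The siControl library thus held the highest and widest of the 3 regions. Beyond that end, AcH2B formed 1 wide region in each library, of 4367 bp in siControl with a fold of 10.2, 4648 bp in siME1 with a fold of 11.7 and 3429 bp in siME2 with a fold of 7.48. AcH3 covered the same stretch as 1 region of 4126 bp in siME1, with a fold of 9.15. Within 1 kb beyond that end AcH3 was listed in siControl as 2 short regions of 295 and 423 bp, and not in siME2. Regions lying wholly farther out were not collected, so the rest of the stretch was not compared between libraries. The predicted gene Gm46293 has a listed start within 1 kb of this stretch, so it may not belong to Col1a1 alone.

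Col1a2 spans chr6:4505618-4541543. Its highest AcH3 region near the start had a fold of 14.8 under siControl, 11.9 under siME1 and 6.03 under siME2. In siControl the regions ended 154 bp before the listed start and began again 53 bp after it, and both CCAAT matches printed above lay in this gap. In siME1 a single region of 2303 bp ran from 508 bp before the start to 1794 bp into the gene, and in siME2 the gap lay between 169 bp before and 133 bp after the start. AcH2B folds at the start were 6.64, 8.05 and 6.24 in siControl, siME1 and siME2. A gap was seen in all 3 AcH2B lists too, the narrowest in siME1, where one region ended 41 bp after the start and the next began at 95 bp.

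Col3a1, the type III chain that forms fibrils with type I collagen, spans chr1:45311538-45349706. AcH3 at its start had a fold of 12.9 under siControl, 9.25 under siME1 and 7.08 under siME2. AcH2B at the start had the reverse order for siControl, with 4.95 under siControl, 7.39 under siME1 and 6.86 under siME2, and its width was 1288, 2974 and 2904 bp. The promoter with 0 CpG was thus acetylated in all 6 libraries.

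The type V chains, which set the diameter of type I fibrils, differed among themselves. Col5a1 (chr2:27886381-28039510) had an AcH3 start fold of 17.7 under siControl, 8.73 under siME1 and 8.69 under siME2, with AcH2B folds of 6.49, 7.28 and 5.44. Col5a2 (chr1:45374331-45503282) was marked at its upper-coordinate end, with AcH3 folds of 9.17, 9.63 and 4.24. There AcH2B was listed only in the knockdowns, with a fold of 7.1 in siME1 and 3.3 in siME2 within 1 kb of that end. For AcH3 the Col5a3 regions were low: its start region had a fold of 4.61 in siControl and 2.57 in siME2 and was not listed in siME1, where its 1 AcH3 region lay in the gene, with a fold of 3.93. Its AcH2B regions numbered 3, 5 and 5, with highest-scoring folds of 6.51, 5.96 and 6, and an AcH2B region at the start was listed in siME1, with a fold of 3.73.

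Among the remaining fibrillar genes, Col27a1 was marked in every acetylated histone library, and the others held low, scattered regions or none. Col27a1, a fibrillar collagen of cartilage and other tissues, had an AcH3 start region in siControl, with a fold of 8.85, and in siME1, with 6.8, and none in siME2. AcH2B appeared at its start in siME1, with a fold of 6.54, and in siME2, with a fold of 4.58. Col2a1, the main collagen of cartilage, held 1 AcH3 region in each knockdown, with folds of 3.62 and 3.86, and none in siControl. Its AcH2B regions numbered 0, 2 and 1 in siControl, siME1 and siME2, with a highest-scoring fold of 3.71 in siME1 and 3.13 in siME2. None of these lay near a gene end. Col24a1 held 1 AcH3 region, in siME2, with a fold of 3.38, and 1 AcH2B region in each knockdown, with folds of 3.78 and 4.36. Col11a2 held a single region in the whole series, AcH3 in siControl with a fold of 3.74. Col11a1, which forms cartilage fibrils with type II collagen, held none in any library.

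**Figure D2:**
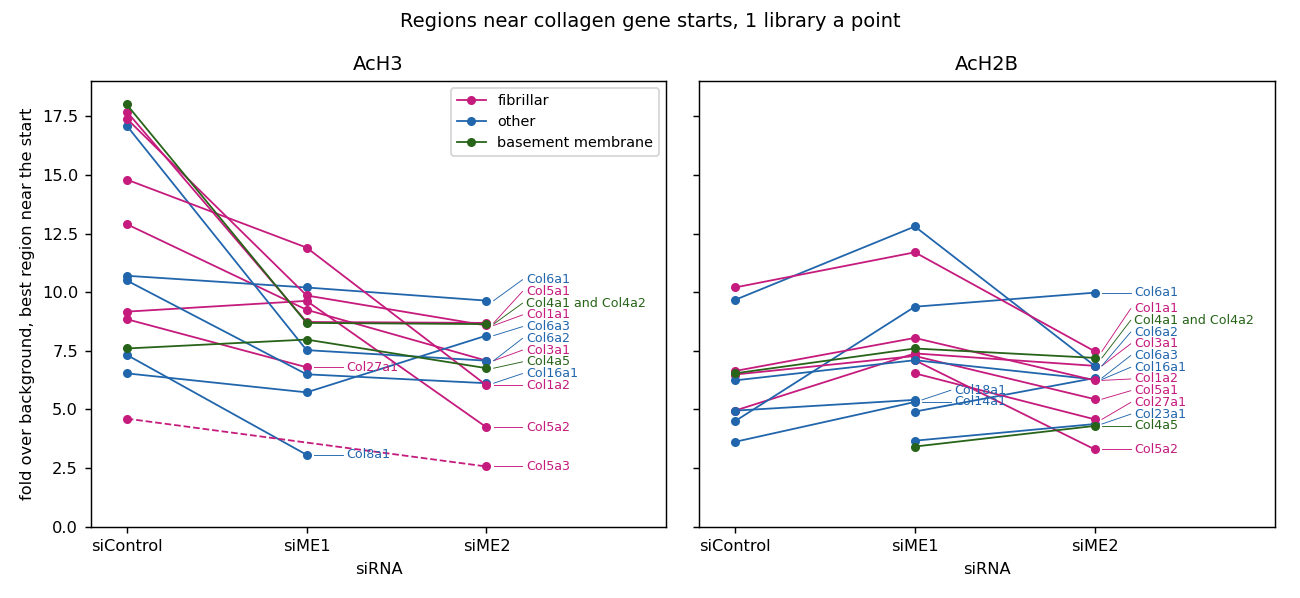
Fold over background of the highest-scoring region within 1 kb of the listed start (of either annotated end for genes without one), for AcH3 on the left and AcH2B on the right. Each point is 1 library, each line 1 gene listed in at least 2 of the 3 libraries, and a dashed line skips a library with no region. The high AcH3 folds of siControl, such as 18 at the shared start of Col4a1 and Col4a2, have no counterpart in siME1 or siME2, where the highest values are 11.9 and 9.64.

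The folds at retained starts were lower in the knockdown lists, as they were over all genes. AcH3 start regions were listed in both siControl and siME1 at 12 collagen genes, with a lower fold in siME1 at 11 and a median ratio of 0.669. Over the 7473 genes of that kind 93.7% were lower, with a median ratio of 0.597. In siME2 10 of 11 were lower, with a median ratio of 0.55, against 97.3% of 4181 genes and 0.437. The exceptions were Col4a5 in siME1 and Col6a3 in siME2. The collagen start regions narrowed less in siME2, with a median ratio of total width of 0.783, against 0.346 over all genes. For AcH2B all 9 collagen starts listed in both siControl and siME1 had a higher fold in siME1, with a median ratio of 1.16, against 1.31 over 1596 genes, of which 17.7% were lower. In siME2 5 of 8 were higher, with a median ratio of 1.05. Even so, collagen starts stood above the usual level for AcH2B, with a median fold of 6.49, 7.19 and 6.31 in siControl, siME1 and siME2, against 4.49, 4.5 and 4.58 over all marked starts.

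Marking differed among the basement membrane genes. Col4a1 (chr8:11198423-11312889) and Col4a2 (chr8:11312805-11449287) share the start region, whose AcH3 fold was 18 under siControl, 8.69 under siME1 and 8.64 under siME2 and whose width was 3125, 2170 and 2505 bp. The AcH2B fold there was 6.54, 7.6 and 7.2. In siControl AcH2B lay on both sides of the starts as 2 regions, of 1517 bp with a fold of 6.54 on the Col4a1 side and of 772 bp with a fold of 5.27 on the Col4a2 side. In the knockdowns it was 1 region across them, of 2259 bp in siME1 and 1996 bp in siME2.

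Col4a5 and Col4a6, the paired chains on the X chromosome, were not marked alike. Col4a5 (chrX:141475370-141689236) had AcH3 at its start in all 3 libraries, with folds of 7.6, 7.98 and 6.76, and AcH2B only in siME1, with a fold of 3.42, and siME2, with a fold of 4.3. Col4a6 (chrX:141165403-141474095) held no AcH3 region under siControl, 5 under siME1 and 1 under siME2. The 1 near its start, in siME1, had a fold of 4.15 and also lay within 1 kb of the Col4a5 start. Its AcH2B regions numbered 2, 12 and 4, all in the gene's interior. Col4a3 and Col4a4, chains of the glomerular basement membrane of the kidney, held no region of any antibody in any library.

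Type VI collagen, a beaded filament abundant around fat cells, was marked at the starts of its 3 main chains. Col6a1 had an AcH3 start fold of 10.7 under siControl, 10.2 under siME1 and 9.64 under siME2, which lay within a narrow range. Its AcH2B fold was 4.5, 9.38 and 9.98, and the siME1 region was 9159 bp wide, reaching 9242 bp before the listed start. Regions lying wholly more than 1 kb outside the gene were not collected, so this stretch was not fully compared between libraries. Over all genes with AcH2B at the start in both lists, the median width ratio of siME1 to siControl was 2.41. Col6a2 had AcH3 folds of 17.1, 7.53 and 7.08 and AcH2B folds of 9.67, 12.8 and 6.86. Col6a3 had AcH3 folds of 6.54, 5.73 and 8.15, and AcH2B at its start only in siME1, with a fold of 4.91, and siME2, with a fold of 6.34. The minor chains Col6a4, Col6a5 and Col6a6 had no start region. Col6a5 had 1 AcH3 region near its far end in siME1, with a fold of 4.44.

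Other collagens with a region near a gene end varied. Col16a1, which sits on the surface of fibrils, had AcH3 start folds of 10.5, 6.5 and 6.12 and AcH2B start folds of 6.24, 7.1 and 6.28. Col8a1, a network-forming collagen of vessels, had an AcH3 start fold of 7.33 in siControl, of 3.07 in siME1, and none listed in siME2. AcH2B was not listed at the Col8a1 start in any library. Col18a1, the source of endostatin, had no AcH3 start region in siControl or siME2 and 1 in siME1, with a fold of 4.74. Its AcH2B start fold was 4.95 in siControl and 5.41 in siME1, with none in siME2. Col23a1, a transmembrane collagen, had AcH2B at its start in siME1, with a fold of 3.67, and siME2, with a fold of 4.38. The Col23a1 AcH3 region of siControl, with a fold of 9.28, lay at the far end, within 1 kb of the listed start of Phykpl, so it cannot be assigned to Col23a1.

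**Figure D3:**
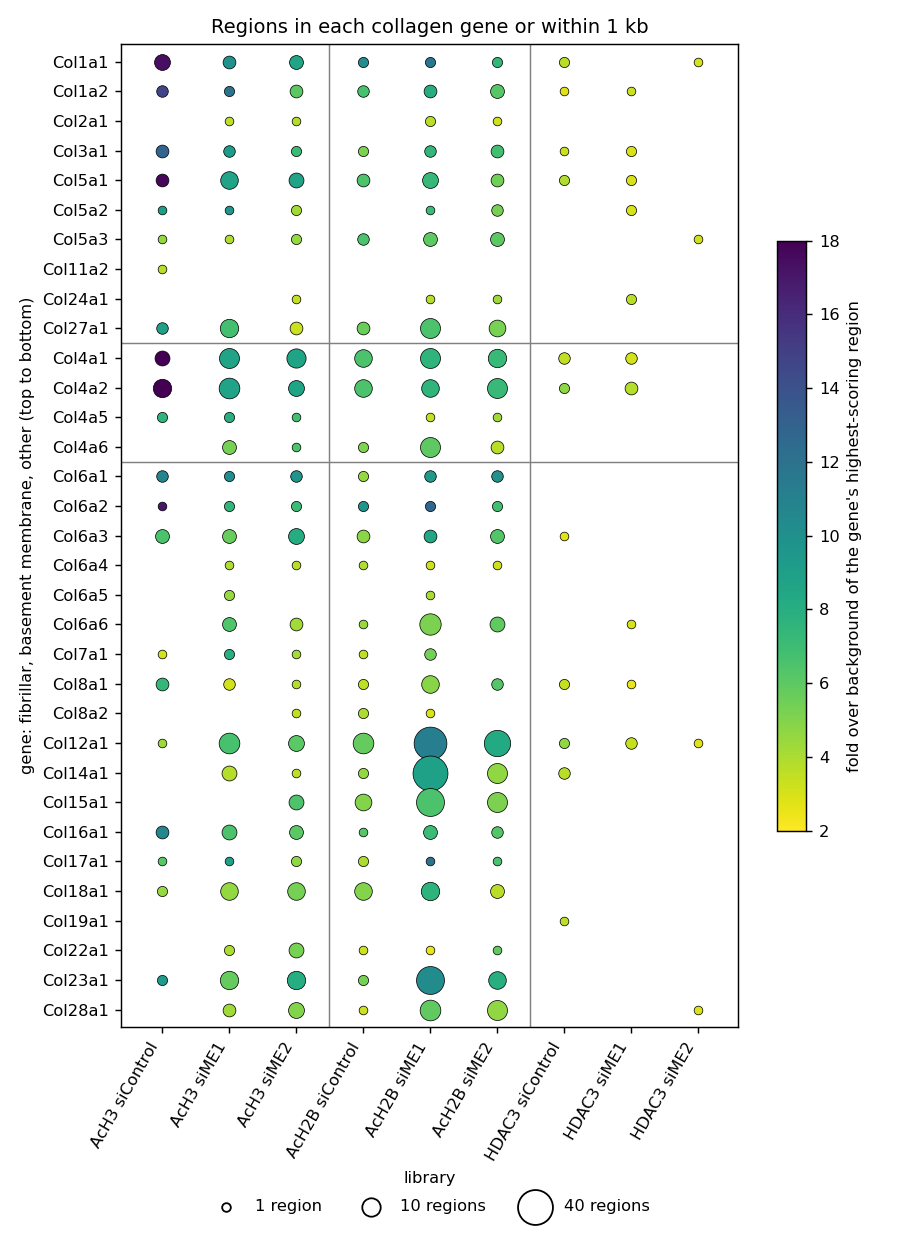
Each row is 1 of the 33 collagen genes with a region in any library, in the order fibrillar, basement membrane and other, and each column 1 library. Circle area grows with the number of regions in the gene or within 1 kb, and colour gives the fold of the highest-scoring one. The dark circles of AcH3 siControl mark a highest-scoring region of high fold at Col1a1, Col1a2, Col5a1, Col4a1, Col4a2 and Col6a2. The large circles of AcH2B siME1 are the many regions in or within 1 kb of Col12a1, Col14a1, Col15a1 and Col23a1.

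Inside the genes the knockdown lists held more regions. Regions more than 1 kb from an annotated end or a listed start are called interior here. At collagen genes only the ends and starts of collagen genes counted, and over all genes those of every protein-coding gene. The 2 sets of ratios are therefore not fully alike. Over all collagen genes AcH3 had 43 interior regions under siControl, 108 under siME1 and 97 under siME2, ratios of 2.51 and 2.26, against 2.05 and 1.95 over all protein-coding genes. Regions near gene ends numbered 22, 26 and 22 at collagen genes, ratios of 1.18 and 1, against 0.954 and 0.54 over all genes. More interior AcH3 regions than in siControl were listed at 18 collagen genes in siME1 and at 20 in siME2, and fewer at 5 and 6. The same count by gene was not made over all genes or with lists of equal length. The knockdown lists were longer in all. With each AcH3 list limited to its 21995 best-scoring regions, the interior regions numbered 43, 50 and 67.

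AcH2B had 72 interior regions at collagen genes under siControl, 234 under siME1 and 131 under siME2, ratios of 3.25 and 1.82, against 2.87 and 1.59 over all genes. With lists of equal length the numbers were 72, 81 and 66, so the excess was small in siME1 and absent in siME2. Regions per Mb set the collagen genes beside all gene windows. AcH3 reached 11.8 per Mb at collagen genes and 16.8 per Mb over all in siControl, 24.2 and 21.3 in siME1, and 21.5 and 15.8 in siME2. AcH2B in siControl reached 16.3 per Mb at collagen genes and 9.23 per Mb over all gene windows. The values in siME1 were 47.6 and 27.4, and in siME2 28.2 and 17.1.

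**Figure D4:**
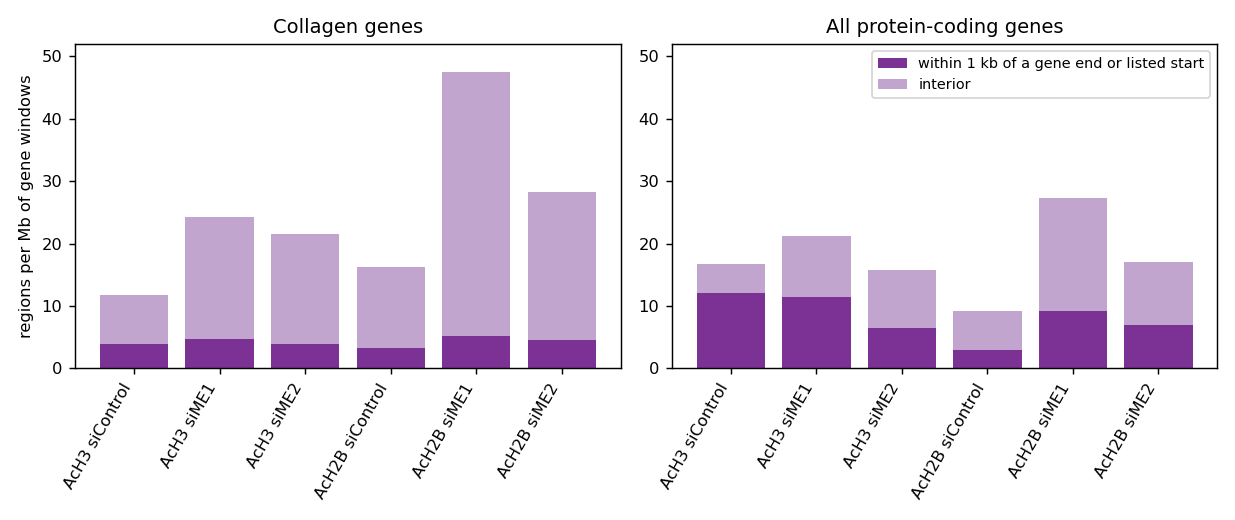
Regions per Mb of merged gene windows (gene span and 1 kb on either side), stacked as those near a gene end or listed start (dark) and interior ones (light), for the 6 acetylated histone libraries. Left, the collagen genes, 5.53 Mb in all, split by the ends and starts of collagen genes. Right, all protein-coding genes, 1070 Mb, split by those of every protein-coding gene. At collagen genes the dark part stands for 18 to 29 regions in each library, and the light part reaches its highest level in AcH2B siME1, where all regions together come to 47.6 per Mb.

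Several long genes held many regions. The counts given here are of all regions in the gene or within 1 kb, interior or not. Col12a1, a fibril-associated collagen of tendon and other dense tissue, held 1 AcH3 region under siControl, 13 under siME1 and 7 under siME2, and 13, 35 and 22 AcH2B regions. Its highest-scoring AcH2B fold was 5.8 under siControl, 11.2 under siME1 and 8.28 under siME2. Col14a1, another fibril-associated collagen, held 0, 6 and 1 AcH3 regions and 2, 40 and 12 AcH2B regions. Col15a1, a collagen of the basement membrane zone, held AcH3 only in siME2, with 6 regions, and AcH2B in all 3 libraries, with 8, 25 and 12 regions. Col23a1 held 2, 10 and 10 AcH3 regions and 2, 25 and 9 AcH2B regions. In all 3 libraries the Col23a1 AcH3 count includes a region at the far end, near the listed start of Phykpl.

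The other genes gained for AcH3 in a knockdown were marked in their interior as well. Col28a1 held 0, 4 and 7 AcH3 regions in siControl, siME1 and siME2, Col6a6 held 0, 5 and 4, and Col22a1 held 0, 2 and 6. Each of these already held 1 AcH2B region in siControl. Col8a2 gained 1 AcH3 region, in siME2, and Col6a4 gained 1 in each knockdown. Of the 10 genes gained for AcH3 in siME2, only Col2a1 and Col24a1 had no AcH2B region in siControl. This count was not made over all genes gained for AcH3, and AcH2B in siControl was listed at 59.1% of the collagen genes.

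Single regions also recurred inside genes. Col17a1, a hemidesmosome collagen of skin epithelium, held an interior AcH3 region about 32 kb from its listed start in all 3 libraries, with folds of 6.17, 8.95 and 4.66. AcH2B was listed there too, with a highest-scoring fold of 3.97, 12 and 6.61. Col7a1, which makes anchoring fibrils, held interior AcH3 regions with folds of 3.09, 7.98 and 4.13, and AcH2B regions with folds of 3.59 in siControl and 5.41 in siME1, but none in siME2.

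**Figure D5:**
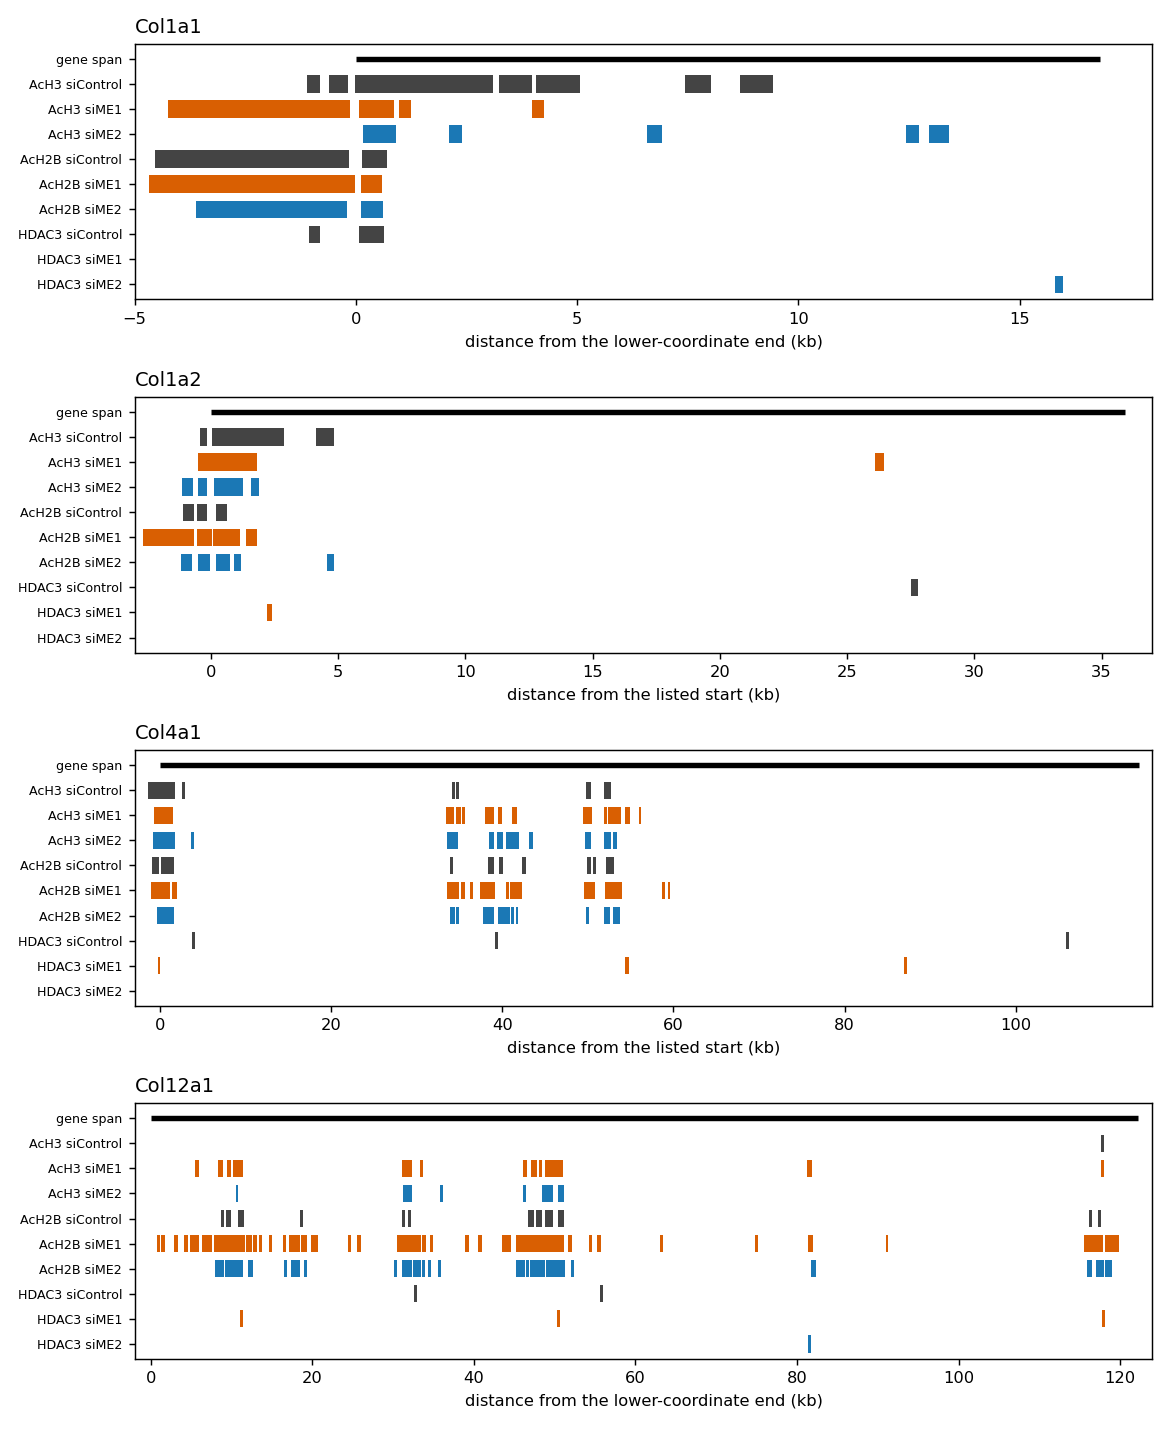
Regions of the 9 libraries along Col1a1, Col1a2, Col4a1 and Col12a1, with distance in kb from the listed start (from the lower-coordinate end for Col1a1 and Col12a1). The black line is the gene span, each block 1 region, with short regions drawn at a minimum width, and colours give the siRNA. Regions lying wholly more than 1 kb outside the gene were not collected and are not drawn. At Col4a1 the start region is present in all 6 acetylated histone libraries, and at Col12a1 the single AcH3 region of siControl lies near the upper-coordinate end while the 13 of siME1 are spread through the gene.

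The AcH3 regions new in a knockdown often lay where AcH2B was listed. In siME1, 88 of the 134 AcH3 regions at collagen genes overlapped no AcH3 region of siControl. Of these 88, 31.8% overlapped an AcH2B region of siControl and 75% one of siME1. In siME2 it was 79 of 119, of which 36.7% overlapped AcH2B of siControl and 49.4% AcH2B of siME2. The same shares over all gene windows were 32.2% and 77% in siME1 and 31.5% and 52.5% in siME2, so the collagen genes did not stand apart. Of the 65 AcH3 regions of siControl at collagen genes, 67.7% overlapped a region in siME1 and 50.8% in siME2, against 71.4% and 43.3%. Whether AcH3 and AcH2B were called against the same background library is not given in the sources used.

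Several collagens known from cartilage, kidney and nerve had no listed AcH3 or AcH2B region, but not all cartilage collagens lacked one. Col27a1 was marked in all 6 acetylated histone libraries, and Col2a1 in those of both knockdowns. No region of AcH3 or AcH2B was listed in any library at 12 genes: Col11a1, Col4a3, Col4a4, Col9a1, Col9a2, Col9a3, Col10a1, Col13a1, Col19a1, Col20a1, Col25a1 and Col26a1. Type IX and type X collagens belong to cartilage, and Col25a1 is expressed in neurons. Several of these genes are long, with 420 kb for Col25a1 and 330 kb for Col19a1. At the other end, 17 genes held a region in all 6 acetylated histone libraries: 6 of 11 fibrillar, 2 of 6 basement membrane and 9 of 27 other collagens. Neither this count nor that of the 12 genes was made over all protein-coding genes, so neither can be called high or low. By class, AcH3 was listed at 8, 8 and 9 fibrillar genes in siControl, siME1 and siME2, at 3, 4 and 4 basement membrane genes and at 10, 16 and 17 others. AcH2B was listed at 6, 9 and 9 fibrillar, 3, 4 and 4 basement membrane and 17, 18 and 15 other genes. The other collagens made up 6 of the 8 genes gained for AcH3 in siME1 and 7 of the 10 in siME2. They made up a like share of the 23 genes unmarked in siControl, so the gains did not concentrate in this class.

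HDAC3 regions seldom reached a q-value of 0.05, in the whole lists as at collagen genes. Of all HDAC3 regions 91.9%, 97.6% and 95.9% lay above it in siControl, siME1 and siME2. The median fold was 3.42, 2.95 and 3.03 at collagen genes, against 3.12, 2.95 and 3.13 over all gene windows. HDAC3 was listed at 9.46%, 9.08% and 3.8% of all genes in siControl, siME1 and siME2. At collagen genes it was 11, 10 and 4 of 44. Of the 44 regions, 2 had a q-value of at most 0.05, both in siControl and both interior: 1 in Col4a2, with a fold of 4.7, and 1 in Col12a1, with a fold of 4.67. Of the 11 genes of siControl, 4 were lost in siME1 and 9 in siME2, against 63.9% and 80.1% of all, and 3 and 2 were gained, against 6.26% and 2.11%. Col12a1 was the only collagen gene listed in all 3 HDAC3 libraries. Within 1 kb of a listed start HDAC3 was listed at 1 of 35 collagen genes in siControl (Col8a1, fold 3.42), at 4 in siME1 and at 0 in siME2, against 4.6%, 2.82% and 1.91% of all starts. The 4 starts of siME1 were those of Col3a1, with a fold of 2.53, Col5a1, with a fold of 2.95, and the shared start of Col4a1 and Col4a2, with a fold of 2.94. None of these 4 had an HDAC3 region within 1 kb of the start in the other libraries. At Col1a1, without a listed start, HDAC3 was listed near the lower-coordinate end in siControl, with a highest-scoring fold of 3.74, and near the upper end in siME2, with a fold of 3.12.

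The enzymes and partners that make, link and break down collagen were marked by AcH3 more widely than the collagens. Of 54 such genes, AcH3 was listed at 43 under siControl, 45 under siME1 and 41 under siME2, and AcH2B at 33, 44 and 41. The shares over all genes were 52.5%, 48.7% and 31.8% for AcH3 and 16.4%, 39.2% and 34.3% for AcH2B. AcH3 was present in all 3 libraries at 37 of the 54, against 29% of all genes, among them Serpinh1, the collagen chaperone, Lox, which crosslinks fibrils, and Sparc, a collagen-binding matrix protein. Of the 43 with AcH3 in siControl, 2 were listed in siControl alone, against 10.5% of all such genes: P3h3, a prolyl hydroxylase relative, with a fold of 8.51, and Tll1, a procollagen C-proteinase, with a fold of 7.56. Of the 11 without AcH3 in siControl, 3 had it in both knockdowns, against 3.06% of all such genes: Itga11, a receptor for fibrillar collagen, P3h2 and Tnc. Both knockdowns are compared with the same siControl library.

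Of the 21 partner genes without AcH2B in siControl, 9 had it in both knockdowns, against 17.1% of all such genes. The 5 with the highest scores were Timp1, P4hb, P3h1, Loxl4 and Plod3. Timp1, an inhibitor of collagen-degrading proteases, had AcH2B folds of 5.07 in siME1 and 6.66 in siME2. P4hb, a subunit of prolyl 4-hydroxylase, had 5.46 and 4.58. P3h1, a prolyl 3-hydroxylase, had 5.41 and 4.49, while its AcH3 fold was 10.1 in siControl and 4.74 in siME1, with no region in siME2. Loxl4, a lysyl oxidase relative, had AcH2B folds of 4.58 and 3.95, and Plod3, a lysyl hydroxylase, had 4.96 and 3.16. Of the 38 partner genes with a listed start, 28, 28 and 21 held AcH3 there in siControl, siME1 and siME2. Over all starts it was 49.3%, 43.4% and 24.4%. The modification and folding enzymes stood at 11, 10 and 6 of 11, and the fibril partners at 4, 5 and 5 of 6. Propeptide removal stood at 4, 3 and 2 of 6, and crosslinking at 1 of 1 in each library. Breakdown and its inhibitors stood at 4, 5 and 4 of 7, and the receptors at 4, 4 and 3 of 7.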

How the data were processed

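The labels' protocols describe ChIP on sonicated chromatin of 200 to 1000 bp fixed with 1% formaldehyde. The submitters' processing notes name MACS2, BWA, SAMtools, deepTools and bedtools, without versions or roles. Each deposited list has 10 columns without a header. The deposited pileup is a coverage signal, the deposited significance is a −log10 p-value and a −log10 q-value, and the deposited fold is a ratio of pileup plus 1 to background plus 1. The deposited acetylated histone lists had been limited at a −log10 q of about 1.3, the HDAC3 lists at a −log10 p of about 2.3. HDAC3 libraries were taken as such from the antibody label, although their titles read H3. The submitters' notes name mm8, but scaffold names in the lists are those of GRCm38, which was used.

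Summits of 1 peak were joined to 1 region, scored by the highest −log10 p. A gene was marked if a region overlapped it, or 1 kb on either side, by 1 bp. Lost means marked in siControl and not in the knockdown, gained the reverse. Starts and strands came from the RefSeq promoter table. Counting was done in Python 3.11.15 with pandas 2.3.3 and tested on simulated data. Genes named with values were the fibrillar and basement membrane genes with an AcH3 or AcH2B region and the other collagens with such a region near a gene end, and for the partner list those lost in both knockdowns for AcH3 or gained in both for AcH2B, at most 5 of each by score. Genes outside that rule, the interior regions of single genes and the split by start fold were chosen after their values were seen. The alternatives were a stricter score limit (−log10 of 5), equal list lengths, 50% of the region in the window, no extension, an extension of 5 kb, and leaving out regions with a background over 5 times the list median. The members and gene lists were chosen with earlier results of these data known.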

Additional observations from a re-analysis of the deposited data

Results flagged for a closer look

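The number of collagen starts with an AcH3 region moved in opposite directions in the knockdowns. It was 13 of 35 in siControl, 14 in siME1, a difference of 1, and 11 in siME2. With the stricter score limit the starts numbered 13, 11 and 10, and with lists of equal length 13, 12 and 10, so that siME1 also lay below siControl and the opposite directions were not seen. The difference between the knockdowns was not tested, since each value comes from 1 library.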

How the results depend on the processing

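The numbers of collagen genes with an AcH3 or AcH2B region stayed within 1.5 times under every alternative except the one on gene length. Neither requiring 50% of the region in the window, nor dropping the extension, nor leaving out high-background regions moved any of these numbers past that limit, and the median start fold ratios kept their direction. Several counts of lost and gained genes and the HDAC3 counts moved past it, for example from 10 to 6 genes gained for AcH3 in siME2 and from 5 to 1 gained for AcH2B in siME1, and the number of interior regions followed the score limit and list length.

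With the stricter score limit HDAC3 was listed at 3, 1 and 0 collagen genes in siControl, siME1 and siME2. AcH3 was lost at 2 genes in each knockdown and gained at 6 in siME2, and HDAC3 was lost at 2 and 3 and gained at 0 and 0. Interior regions were then 13, 33 and 31 for AcH3 and 20, 87 and 34 for AcH2B, in the same order. With lists of equal length HDAC3 was listed at 7 and 3 genes in siControl and siME1. AcH3 was lost at 3 genes in siME1 and 2 in siME2. AcH2B was lost at 3 and 4 and gained at 1 in siME1, and HDAC3 was gained at 1 in siME1 and lost at 5 in siME2. Interior regions were 50 for AcH3 in siME1, and 81 and 66 for AcH2B in siME1 and siME2. With windows of 5 kb AcH3 was lost at 2 genes and AcH2B at 1 in siME2. Among genes of 100 kb or more, an alternative chosen after seeing the data that tests fewer genes, AcH3 was listed at 10, 17 and 18 and AcH2B at 15, 19 and 18. The cause of the other moves was not tested. No paired analysis was possible because each antibody and siRNA has 1 library. With 1 library each, counting intervals do not cover the spread between cultures.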
